A study of Homo sapiens with 6 samples.

Results

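The 50 genes described here encode the machinery that licenses origins of DNA replication and runs the replication fork. They were chosen as a named set, from the origin recognition complex to chromatin assembly factor 1. They and the lists set beside them were chosen with earlier results of these data known. Each member was found by its symbol in the deposited table of 21631 genes. The table holds RNA sequencing counts from A-375, an established human melanoma cell line, in 2 groups. A group of 3 libraries is labelled as carrying a guide against SEPHS2 (sgSEPHS2), and a group of 3 is labelled as carrying a control guide (sgCTRL). SEPHS2 makes the selenophosphate from which selenocysteine is built. The submitters call the first group knockout cells and ask how its gene expression differs from that of the controls. The labels name no drug or time. Neither do they name a clone, and founding cells and guide cannot be told apart as the source of a difference. Whether replicates were separate cultures is not said, so each p-value speaks of the variation among these libraries alone, technical variation included.

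Before a cell copies its DNA, the origin recognition complex (ORC) marks start sites, and CDC6 and CDT1 use it to load the ring of MCM2 to MCM7 in G1 phase. In S phase, the kinases CDC7-DBF4 and CDK turn that ring into the active helicase by adding CDC45 and the GINS proteins. DNA polymerase alpha-primase then lays primers, the clamp PCNA is loaded by replication factor C (RFC), and polymerases delta and epsilon extend the strands. FEN1, DNA2, RNASEH2A and LIG1 finish the Okazaki fragments of the lagging strand. Many of these genes are transcribed under E2F factors as cells enter S phase, so their mRNA levels in a bulk culture also follow the share of cells that are cycling. In bulk samples more cells in S phase and more RNA per cell cannot be told apart.

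The libraries labelled sgSEPHS2 held 34606145, 43405579 and 40284730 counted reads, and the sgCTRL libraries held 41757643, 41288628 and 39796984. The RNA of the targeted gene was slightly higher, not lower, in the libraries labelled sgSEPHS2. SEPHS2 (chromosome 16, 30443631 to 30445874, GRCh38.p14) averaged 173 ± 3.85 CPM (reads of a gene per 1000000 counted reads, with TMM-scaled library sizes) in the libraries labelled sgSEPHS2 and 156 ± 3.32 CPM in the sgCTRL libraries (SD, n = 3 each, log2 fold change 0.15, edgeR adjusted p = 0.00286). A count over the whole gene does not show whether a guide changed its reading frame, and every direction below rests on the labels. Of the markers of the melanocyte lineage, SOX10 averaged 569 CPM in the libraries labelled sgSEPHS2 and 619 CPM in the sgCTRL libraries. Of the 8 tested genes of the melanoma and neural crest list, NGFR (log2 fold change 1.97) and AXL (0.42) rose, and MITF (-0.35), PRAME (-0.12) and SOX10 (-0.12) fell. The pigment genes PMEL and MLANA stood near 1 CPM, and TYR and DCT had at most 6 reads in any library. Summed markers of each other cell type stood at most at 23.6 CPM in any library. The keratinocyte sum was 1.32 to 2.05 CPM in the libraries labelled sgSEPHS2 and 0.356 to 0.678 CPM in the sgCTRL libraries. KRT14 made up most of it and was called higher (log2 fold change 2.14, edgeR adjusted p = 1.50e-05). The fibroblast sum was 19.7 to 23.6 CPM in the libraries labelled sgSEPHS2 and 19.1 to 22.5 CPM in the sgCTRL libraries, and within it LUM rose (log2 fold change 0.76) and COL1A1 fell (-0.61). PDGFRA, averaging 10.3 CPM in the libraries labelled sgSEPHS2 and 10.9 CPM in the sgCTRL libraries, did not pass, nor did DCN. The endothelial sum was 5.65 to 6.83 CPM in the libraries labelled sgSEPHS2 and 6.49 to 7.99 CPM in the sgCTRL libraries, and the leukocyte sum was at most 0.301 CPM. The part of these genes in the results below was not tested.

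The replication genes were higher in the libraries labelled sgSEPHS2 almost throughout. Of the 50, all of which passed the filter on low counts, 47 rose and 0 fell by edgeR's quasi-likelihood test at an adjusted p under 0.05. Over all 16910 genes tested, 45.6% were called, 22.2% as higher and 23.4% as lower. Higher genes were thus 48.6% of those called, and 66.6% once a trend in exon length and GC content was removed, where 47 members again were called higher. That removal also moved the median of all genes to 0.08 on the log2 scale, a shift that values given for it below include. Of the 9956 genes averaging 10 CPM or more, 30.3% were called higher. DESeq2 and limma-voom also called 0 members lower. RFC3, at a negative value, had an unadjusted edgeR p of 0.0480. Over the members the log2 fold changes had a median of 0.50 and quartiles of 0.33 and 0.64. The median was 0.01 over all genes tested and 0.02 over those of at least 10 CPM. The libraries labelled sgSEPHS2 lay wholly above the sgCTRL libraries for 47 members, against 26.5% of all genes tested. The rises were moderate in size. A fold of at least 1.5 with a call was reached by 16 members, against 3.6% of all genes tested, and no member reached 2-fold. Summed over the members, the level was 3935, 3674 and 3569 CPM in the libraries labelled sgSEPHS2, against 2752, 2812 and 2756 CPM in the sgCTRL libraries, a ratio of 1.34 between the means.

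**Figure D1:**
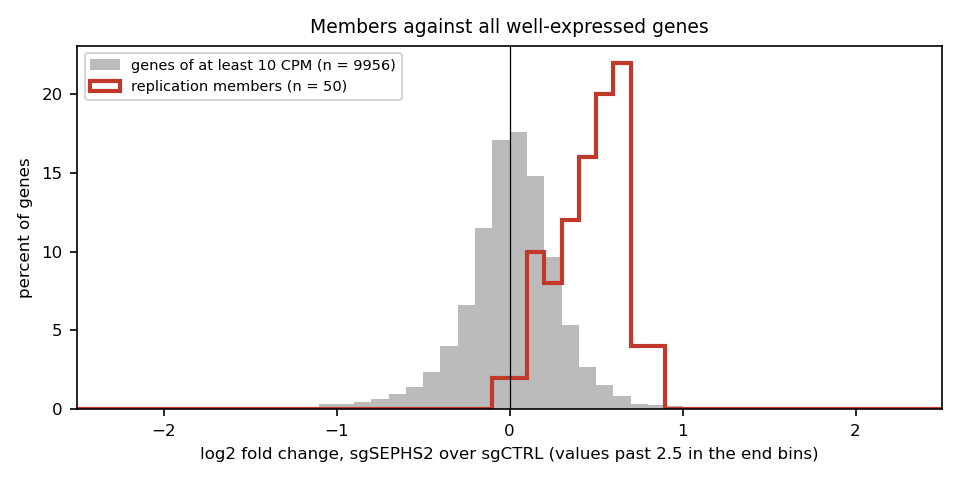
Share of genes (percent, y axis) by log2 fold change, sgSEPHS2 over sgCTRL (x axis), for 9956 genes of at least 10 CPM (grey) and for the 50 replication members (red outline). The members sit to the right of the grey distribution, with a median of 0.50 against 0.02.

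The 3 members that did not pass were ORC4, POLD2 and RFC3, which belong to different complexes. Calls with a small effect sat beside them, with RFC1 and ORC5 at log2 fold changes of 0.13 and 0.16. At the other end stood RNASEH2A, at very few reads, then PCNA, CLSPN and CDC6. With the length and GC trend removed, PCNA (0.74) stood below MCM5 (0.82), POLA2 (0.79), CLSPN (0.77) and CDC6 (0.76). Within the libraries labelled sgSEPHS2, replicate 1 was the highest for 41 of the 50 members and replicate 3 the lowest for 33. Over all genes of at least 10 CPM, replicate 1 was the highest for 43.3%. Replicate 1 was also the shallowest library, and the part of its depth in this order was not tested. Without it, 45 members rose and 1 (RFC3) fell, and the members' median was 0.46 on the log2 scale.

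**Figure D2:**
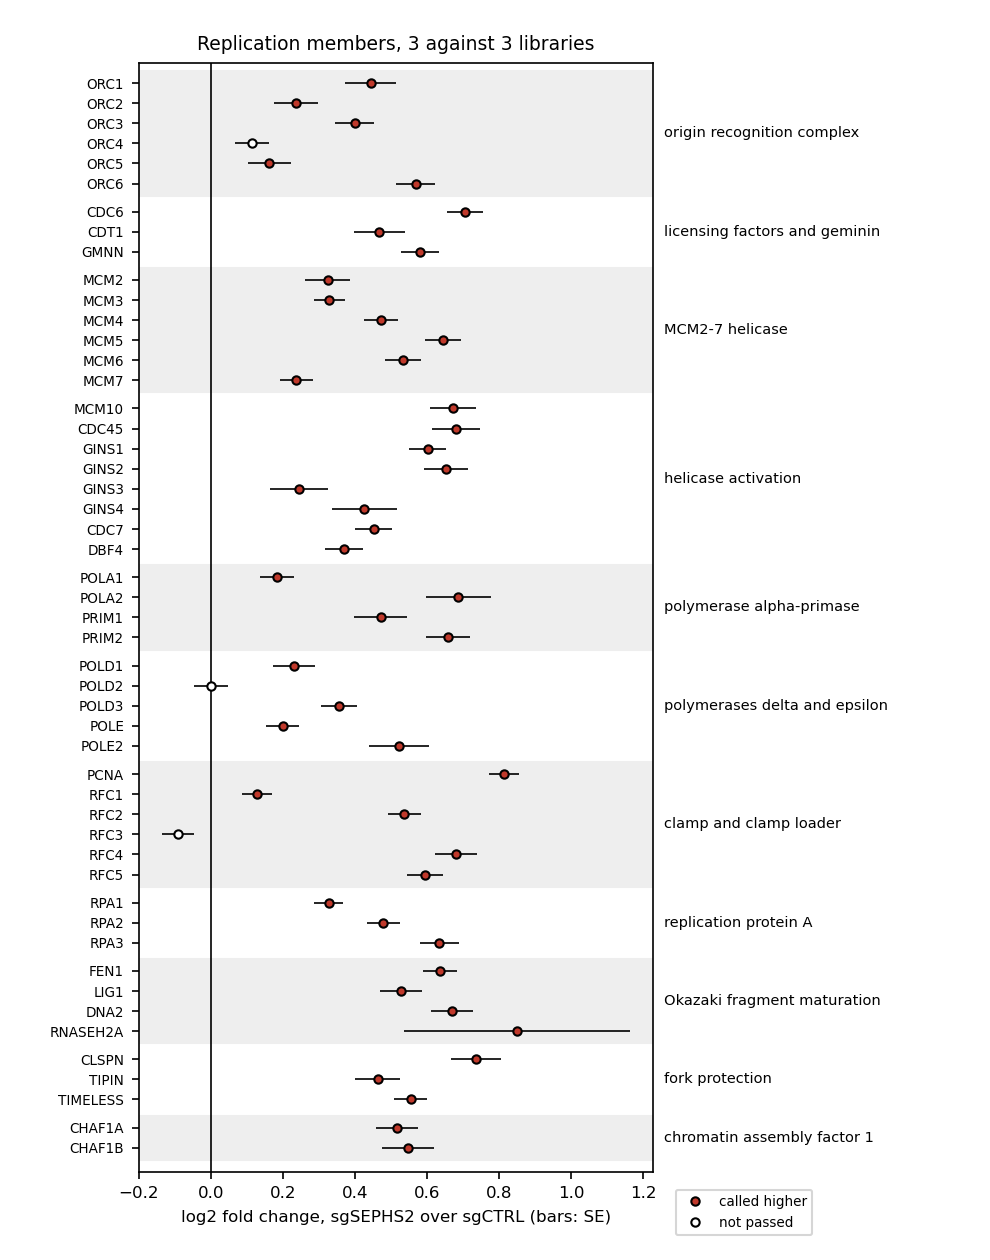
Log2 fold change, sgSEPHS2 over sgCTRL (x axis, bars show the SE), for each of the 50 members (y axis) grouped by role. Filled points were called higher by edgeR and open points did not pass. All points but that of RFC3 lie at or right of 0, and RNASEH2A has by far the longest bar.

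Promoter sequences are shown for 4 members because the members moved together and because E2F factors bind many replication promoters. The windows run from 250 bases before to 50 bases after the RefSeq start on GRCh38.p14, and 43 of the 50 members matched. For 39 of these the start is that of the gene record. For ORC1, CDC45, PRIM2 and POLD2 the table's start lies inside the gene, by 5080, 454, 93265 and 777 bases, and their windows miss the gene's outermost start. The members with no window were MCM4, MCM5, GINS4, POLD3, RPA2, RPA3 and DNA2. The letters searched on both strands were TTTGGCGC, TTTCCCGC, TTTCGCGC and TTTGCCGC, called E2F-like here, and they are in capitals below on whichever strand they were found. Overlapping matches on the 2 strands were counted separately.
PCNA, chr20:5126573-5126872, minus strand: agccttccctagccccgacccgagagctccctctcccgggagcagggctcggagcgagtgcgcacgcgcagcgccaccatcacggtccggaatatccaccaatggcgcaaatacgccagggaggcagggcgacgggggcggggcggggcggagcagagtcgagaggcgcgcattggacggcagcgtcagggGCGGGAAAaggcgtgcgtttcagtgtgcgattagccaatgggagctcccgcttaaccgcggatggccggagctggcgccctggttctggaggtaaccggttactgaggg
MCM6, chr2:135876394-135876693, minus strand: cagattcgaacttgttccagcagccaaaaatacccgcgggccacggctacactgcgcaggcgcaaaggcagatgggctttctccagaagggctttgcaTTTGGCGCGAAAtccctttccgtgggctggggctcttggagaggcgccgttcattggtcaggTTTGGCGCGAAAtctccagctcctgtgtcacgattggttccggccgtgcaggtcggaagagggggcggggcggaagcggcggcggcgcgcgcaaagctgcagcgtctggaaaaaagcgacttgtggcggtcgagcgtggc
RFC3, chr13:33817899-33818198, plus strand: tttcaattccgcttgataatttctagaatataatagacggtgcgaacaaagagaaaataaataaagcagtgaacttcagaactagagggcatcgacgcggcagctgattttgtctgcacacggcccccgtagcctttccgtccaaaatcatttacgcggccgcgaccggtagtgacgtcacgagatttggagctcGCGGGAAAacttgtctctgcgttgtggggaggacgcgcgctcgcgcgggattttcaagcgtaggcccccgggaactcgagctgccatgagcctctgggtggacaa
ORC4, chr2:148021502-148021801, minus strand: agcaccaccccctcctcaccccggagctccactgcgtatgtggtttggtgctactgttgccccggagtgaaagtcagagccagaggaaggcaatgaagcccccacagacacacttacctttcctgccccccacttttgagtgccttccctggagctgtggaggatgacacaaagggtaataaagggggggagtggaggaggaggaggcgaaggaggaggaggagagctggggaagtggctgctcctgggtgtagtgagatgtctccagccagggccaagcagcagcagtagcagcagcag

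E2F-like letters stood in 18 of the 43 members' windows, or 41.9%, against 5.01% of the windows of the 12611 tested genes that matched and 3.33% of all 27305 windows. In the wider list of replication genes described below they stood in 8 of 56 windows, or 14.3%. Among the members they stood more than once in 4 windows, those of MCM2, MCM3, MCM6 and MCM7, all subunits of the same ring. In MCM6 the letters form a pair of identical 12-base stretches, each matched on both strands. In MCM2 the matches, at positions 3 and 7 on opposite strands, overlap in a single stretch. CCAAT letters on either strand stood in 58.1% of the members' windows, against 46.4% of those of the wider list and 36.6% of those of tested genes. TTTGAA, the core of the cell cycle homology region of G2/M genes, stood in 2.33% of the members' windows. It stood in 8.93% of those of the wider list and 10.4% of those of tested genes. A match is only a match of letters. The presence of E2F-like letters did not sort the members by size of change. The median log2 fold change was 0.49 in the 18 members with the letters and 0.52 in the 25 without. Those 25 include ORC1, CDC45, PRIM2 and POLD2, whose windows miss the gene's outermost start, and near matches were not counted. The comparison therefore cannot tell whether E2F factors act on these genes. PCNA, at a log2 fold change of 0.81, and RFC3, which did not pass, each hold the letters GCGGGAAA once, and the window of ORC4, which did not pass either, holds none.

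The subunits of ORC rose unequally. Of 6, 5 rose, and the sum over the complex was 1.24 times higher. ORC6, the smallest subunit, had 55.9, 53.2 and 50.3 CPM in the libraries labelled sgSEPHS2, against 34.0, 37.1 and 36.3 CPM in the sgCTRL libraries. These groups did not overlap, and the log2 fold change was 0.57, SE 0.05 (edgeR adjusted p = 3.60e-09). ORC1, the subunit whose level varies through the cell cycle, had 43.5, 34.0 and 36.3 CPM in the libraries labelled sgSEPHS2, against 28.5, 27.8 and 27.1 CPM in the sgCTRL libraries. Replicate 1 of the libraries labelled sgSEPHS2 stood well above the other two, and the log2 fold change was 0.44, SE 0.07 (edgeR adjusted p = 1.49e-05). ORC3 and ORC2, core subunits, rose by 0.40 and 0.24 on the log2 scale. ORC5, a core subunit with ATPase fold, averaged 37.9 ± 1.70 CPM in the libraries labelled sgSEPHS2 and 33.9 ± 2.37 CPM in the sgCTRL libraries (SD, n = 3 each). Its groups overlapped. Its call (log2 fold change 0.16, edgeR adjusted p = 0.0259) was lost without sgCTRL replicate 1 (edgeR adjusted p = 0.147), without sgCTRL replicate 3 (0.106) and without sgSEPHS2 replicate 2 (0.133). ORC4 had 56.0, 54.3 and 56.5 CPM in the libraries labelled sgSEPHS2, against 50.8, 52.2 and 51.1 CPM in the sgCTRL libraries. These groups did not overlap either, with a fold of 1.08 (95% interval 1.01 to 1.16, edgeR adjusted p = 0.0511). It passed without sgSEPHS2 replicate 2 (edgeR adjusted p = 0.0456), and with the length and GC trend removed its log2 fold change was 0.21. Within each library, ORC1 over the sum of ORC2 to ORC5 was 0.259, 0.208 and 0.222 in the libraries labelled sgSEPHS2, against 0.205, 0.190 and 0.191 in the sgCTRL libraries.

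The licensing factors and their inhibitor all rose. CDC6, the ATPase that works with ORC to load the MCM ring, had 97.4, 86.0 and 85.6 CPM in the libraries labelled sgSEPHS2, against 54.3, 56.4 and 54.2 CPM in the sgCTRL libraries. The groups were far apart, by 0.70 on the log2 scale, with an SE of 0.05 (edgeR adjusted p = 2.10e-11). CDT1, which brings the MCM ring to the origin, had 27.1, 24.9 and 23.4 CPM in the libraries labelled sgSEPHS2, against 16.8, 18.6 and 19.2 CPM in the sgCTRL libraries, a log2 fold change of 0.47. Geminin (GMNN), the protein that binds CDT1 and blocks relicensing in S and G2 phase, had 51.6, 51.5 and 48.3 CPM in the libraries labelled sgSEPHS2, against 32.9, 33.2 and 35.1 CPM in the sgCTRL libraries, a log2 fold change of 0.58. The activator and its inhibitor rose together. The ratio of CDT1 to GMNN reads was 0.525, 0.483 and 0.485 in the libraries labelled sgSEPHS2, against 0.509, 0.558 and 0.546 in the sgCTRL libraries, and these ranges overlapped.

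All 6 subunits of the MCM2 to MCM7 ring rose, by amounts that ran from a log2 fold change of 0.24 for MCM7 to 0.64 for MCM5. MCM5 had 91.9, 84.6 and 78.7 CPM in the libraries labelled sgSEPHS2, against 54.4, 54.3 and 54.5 CPM in the sgCTRL libraries. The sgCTRL libraries were nearly equal, and the edgeR adjusted p was 1.35e-10. MCM7 had 314, 306 and 278 CPM in the libraries labelled sgSEPHS2, against 254, 260.1 and 247 CPM in the sgCTRL libraries. Its groups were also apart, by a smaller step (SE 0.04, edgeR adjusted p = 1.10e-04). MCM6, MCM4, MCM3 and MCM2 had log2 fold changes of 0.53, 0.47, 0.33 and 0.32. Summed over the ring, the level was 1126, 1035 and 987 CPM in the libraries labelled sgSEPHS2, against 806, 819 and 789 CPM in the sgCTRL libraries. The sum over the ring divided by the sum of ORC2 to ORC5 was 6.36 ± 0.330 in the libraries labelled sgSEPHS2 and 5.65 ± 0.121 in the sgCTRL libraries (SD, n = 3 each), without overlap.

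The ring contains each subunit once, but the mRNAs were far from equal per length. Per kilobase of the GENCODE 29 principal transcript, MCM7 stood at 101 ± 6.47 CPM in the libraries labelled sgSEPHS2 and 85.8 ± 2.18 CPM in the sgCTRL libraries. MCM5, the lowest of the ring on that scale, stood at 24.1 ± 1.88 CPM per kilobase in the libraries labelled sgSEPHS2 and 15.4 ± 0.0322 CPM per kilobase in the sgCTRL libraries. The order was MCM7, MCM4, MCM3, MCM6, MCM2, MCM5 in each of the 6 libraries. MCM6 and MCM2 stood closest, at 22.4 ± 0.884 and 21.6 ± 0.945 CPM per kilobase in the sgCTRL libraries. Principal transcripts may not be those the cells use, and 23.6% of the annotated exon bases of MCM2 overlap genes on the opposite strand. The strand setting of the counting is not given, so reads of such partners cannot be told apart there.

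**Figure D3:**
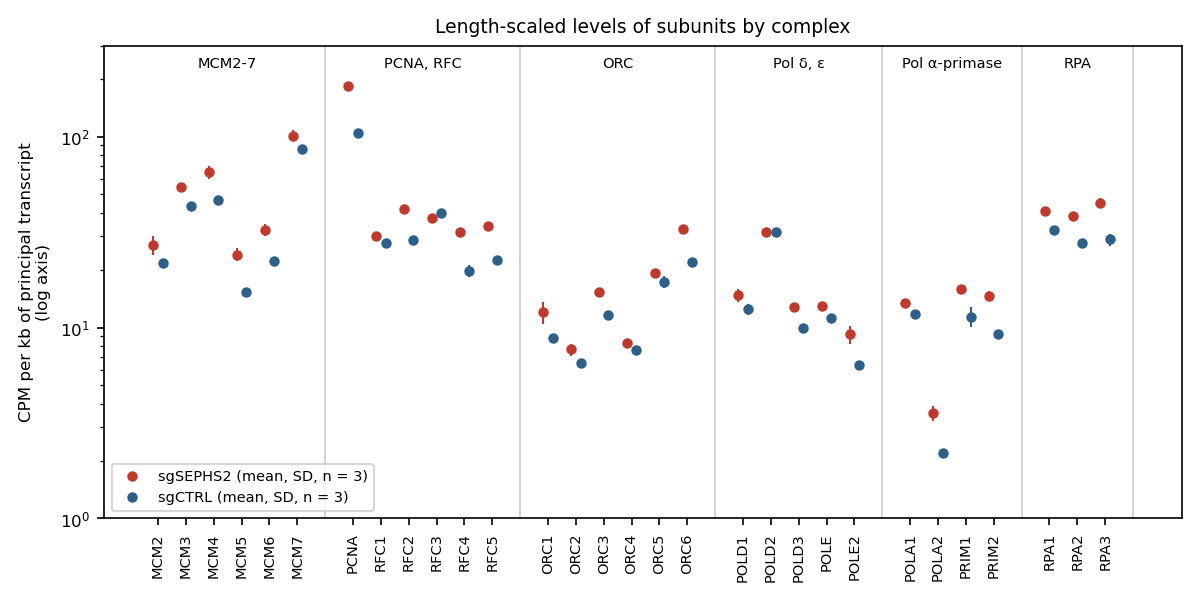
Level per kilobase of principal transcript (CPM per kb, log y axis) of the subunits of 6 complexes (x axis), with mean and SD of 3 libraries for sgSEPHS2 (red, left of each pair) and sgCTRL (blue). PCNA and MCM7 stand highest and POLA2 lowest, and only RFC3 and POLD2 show the groups level or the red point lower.

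The factors that turn the loaded ring into a moving helicase rose without exception, 8 of 8. CDC45, which joins the ring at firing, had 32.5, 31.6 and 27.7 CPM in the libraries labelled sgSEPHS2, against 19.0, 19.0 and 19.3 CPM in the sgCTRL libraries. The sgCTRL libraries were nearly equal and lay well below (log2 fold change 0.68, SE 0.07, edgeR adjusted p = 4.59e-09). MCM10, which helps to activate the helicase and is no part of the ring, had a log2 fold change of 0.67. The 4 GINS subunits form 1 complex and did not rise alike. GINS2 and GINS1 had log2 fold changes of 0.65 and 0.60, GINS4 of 0.43 and GINS3 of 0.24. GINS3 had 15.6, 15.1 and 13.4 CPM in the libraries labelled sgSEPHS2, against 12.1, 12.8 and 12.3 CPM in the sgCTRL libraries. The groups were apart by a small step (edgeR adjusted p = 0.0150). The call was lost without sgCTRL replicate 1 (edgeR adjusted p = 0.0644), sgSEPHS2 replicate 1 (0.0624) or sgSEPHS2 replicate 2 (0.0570). GINS4 had 22.9, 17.0 and 18.5 CPM in the libraries labelled sgSEPHS2, against 14.0, 15.5 and 13.8 CPM in the sgCTRL libraries, with sgSEPHS2 replicate 1 well above the other two. Genes on the opposite strand overlap 23.6% of its exon bases, so its count is uncertain. The firing kinase CDC7 and its activator DBF4 had log2 fold changes of 0.45 and 0.37, and CDC7 had 45.2, 44.9 and 44.7 CPM in the libraries labelled sgSEPHS2, against 32.3, 34.1 and 32.3 CPM in the sgCTRL libraries.

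In polymerase alpha-primase, the enzyme that starts each strand, the catalytic polymerase subunit rose least. POLA1 had 77.5, 69.5 and 73.3 CPM in the libraries labelled sgSEPHS2, against 65.7, 64.2 and 64.0 CPM in the sgCTRL libraries (log2 fold change 0.18, SE 0.05, edgeR adjusted p = 0.00258). Its accessory subunit POLA2 had 14.2, 13.9 and 12.0 CPM in the libraries labelled sgSEPHS2, against 8.12, 8.33 and 8.39 CPM in the sgCTRL libraries. Both pairs of groups were apart, and the log2 fold change of POLA2 was 0.69, SE 0.09 (edgeR adjusted p = 7.14e-07). The ratio of POLA2 to POLA1 reads was 0.182 ± 0.0181 in the libraries labelled sgSEPHS2 and 0.128 ± 0.00406 in the sgCTRL libraries. Annotated exons of another gene cover 35.1% of the exon bases of POLA2 on its own strand, so its level is uncertain. The primase subunits PRIM2 and PRIM1 rose by log2 fold changes of 0.66 and 0.47, with 16.2% of the exon bases of PRIM1 under other genes on the same strand, so its level is uncertain too.

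Of the 5 subunits of the replicative polymerases delta and epsilon 4 rose, at a median of 0.23 on the log2 scale and a sum 1.15 times higher. That median was the lowest of the role groups, but with the length and GC trend removed it was 0.44 and that of ORC, 0.30, was lowest. POLD1 and POLE then stood at 0.44 and 0.48 on the log2 scale. POLD2, the subunit that joins the catalytic subunit to the rest of polymerase delta, had 70.2, 69.7 and 65.9 CPM in the libraries labelled sgSEPHS2, against 66.1, 72.4 and 67.3 CPM in the sgCTRL libraries. The groups overlapped, with a fold of 1.00 (95% interval 0.934 to 1.07, edgeR adjusted p = 1.00). POLD1, the catalytic subunit, had a log2 fold change of 0.23, and POLD3, an accessory subunit, had 0.36. The ratio of POLD2 to POLD1 reads was 1.27, 1.42 and 1.38 in the libraries labelled sgSEPHS2, against 1.45, 1.65 and 1.68 in the sgCTRL libraries, and these ranges did not overlap. The catalytic subunit of polymerase epsilon, POLE, averaged 102 ± 5.73 CPM in the libraries labelled sgSEPHS2 and 88.4 ± 1.17 CPM in the sgCTRL libraries (log2 fold change 0.20, SE 0.05, edgeR adjusted p = 7.81e-04). Its partner POLE2 had 18.4, 15.2 and 15.5 CPM in the libraries labelled sgSEPHS2, against 11.1, 11.6 and 11.4 CPM in the sgCTRL libraries. Replicate 1 of the libraries labelled sgSEPHS2 stood highest, the groups did not overlap, and the log2 fold change was 0.52.

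PCNA, the clamp that holds the polymerases on DNA, was among the members that rose most. It had 258, 253 and 239 CPM in the libraries labelled sgSEPHS2, against 142, 143 and 142 CPM in the sgCTRL libraries. The groups were far apart, by 0.81 on the log2 scale, SE 0.04 (edgeR adjusted p = 2.07e-14). PCNA has 3 pseudogenes named after it, and how reads that map to several places were treated is not known. The same limit holds for RPA2, with 3 such pseudogenes, and for DBF4, POLD2, RFC3, RFC5 and FEN1, with 1 each. Per kilobase PCNA was also the most abundant of the complexes compared, at 184 ± 7.26 CPM in the libraries labelled sgSEPHS2 and 105 ± 0.417 CPM in the sgCTRL libraries.

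The clamp loader RFC, which opens PCNA and places it on DNA, showed the widest disagreement between subunits. RFC4, RFC5 and RFC2, 3 of the small subunits, rose by log2 fold changes of 0.68, 0.59 and 0.54. RFC4 had 47.7, 45.9 and 43.8 CPM in the libraries labelled sgSEPHS2, against 26.3, 29.3 and 30.2 CPM in the sgCTRL libraries. RFC1, the large subunit that is specific to this loader, had 153, 144 and 142 CPM in the libraries labelled sgSEPHS2, against 137, 135 and 129 CPM in the sgCTRL libraries. Its call (log2 fold change 0.13, edgeR adjusted p = 0.0163) was lost without sgCTRL replicate 3 (edgeR adjusted p = 0.115) or sgSEPHS2 replicate 1 (0.0603). RFC3, the remaining small subunit, had 93.2, 89.9 and 87.4 CPM in the libraries labelled sgSEPHS2, against 93.7, 94.7 and 99.8 CPM in the sgCTRL libraries. Here the groups lay just apart in the opposite direction, as for 25.6% of all genes tested, at -0.09 on the log2 scale, SE 0.04 (edgeR adjusted p = 0.0942). With the length and GC trend removed it stood at -0.16 and was called (edgeR adjusted p = 0.00227). RFC3 made up 22.1%, 22.1% and 21.9% of the RFC1 to RFC5 reads in the libraries labelled sgSEPHS2, against 27.5%, 27.4% and 28.9% in the sgCTRL libraries.

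RFC3 is the only member on chromosome 13 (33818149 to 33977377, GRCh38.p14). Genes of that chromosome were lower as a whole. Of 173 with at least 10 CPM, 85.5% were called lower and 1.16% higher. Their median was -0.40 on the log2 scale, while the medians of all other chromosomes lay between -0.02 and 0.19. The nearest such genes to RFC3 were STARD13 and NBEA, at log2 fold changes of -1.18 and -1.18. Other close genes on the 2 sides moved less, PDS5B at -0.39 and EXOSC8 at -0.14 among them. BRCA2 (0.08) and B3GLCT (-0.03) did not pass, and the rest of the listed neighbours were called lower. The value of RFC3 stood above its chromosome's median and below those of its partners. The part of the chromosome in its value was not tested.

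**Figure D4:**
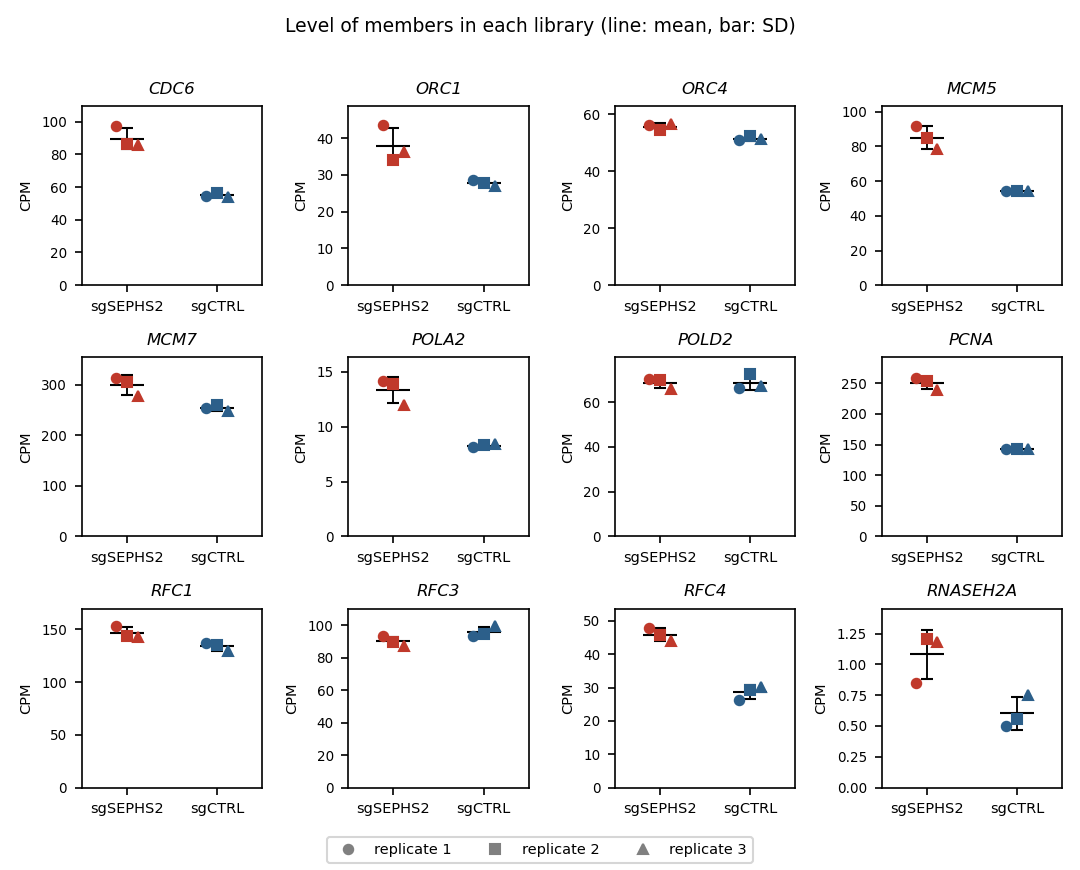
CPM (y axis, from 0) in each library for 12 members, sgSEPHS2 left and sgCTRL right, with mean and SD of 3 libraries and a symbol per replicate. PCNA, CDC6, MCM5, POLA2 and RFC4 show wide gaps between groups, POLD2 shows none, RFC3 is slightly lower in sgSEPHS2, and RNASEH2A stands near 1 CPM.

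Replication protein A, the trimer that coats single-stranded DNA, rose in all 3 subunits, and the smallest subunit rose most. RPA3 had 92.8, 95.0 and 84.5 CPM in the libraries labelled sgSEPHS2, against 53.7, 61.6 and 60.2 CPM in the sgCTRL libraries (log2 fold change 0.63, SE 0.05, edgeR adjusted p = 1.08e-09). RPA1, the large subunit, had 180, 173 and 175 CPM in the libraries labelled sgSEPHS2, against 140, 140 and 141 CPM in the sgCTRL libraries. Both pairs of groups were apart, and the log2 fold changes of RPA2 and RPA1 were 0.48 and 0.33. Per kilobase, the subunits stood closer together than those of the MCM ring. RPA3, RPA1 and RPA2 were at 44.9 ± 2.75, 40.5 ± 0.855 and 38.5 ± 0.330 CPM in the libraries labelled sgSEPHS2, and at 29.0 ± 2.07, 32.3 ± 0.127 and 27.6 ± 0.591 CPM in the sgCTRL libraries. RPA1 was highest in all 3 sgCTRL libraries and RPA3 in all 3 libraries labelled sgSEPHS2, while the order of RPA3 and RPA2 varied among the sgCTRL libraries.

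The enzymes of Okazaki fragment maturation all rose and had the highest median of the role groups, a log2 fold change of 0.65. FEN1, the flap nuclease, had 153, 139 and 135 CPM in the libraries labelled sgSEPHS2, against 88.5, 90.9 and 94.7 CPM in the sgCTRL libraries. The groups were well apart (log2 fold change 0.64, SE 0.05, edgeR adjusted p = 5.80e-11). The helicase-nuclease DNA2 averaged 44.2 ± 2.76 CPM in the libraries labelled sgSEPHS2 and 27.7 ± 0.892 CPM in the sgCTRL libraries, a log2 fold change of 0.67. DNA ligase I (LIG1), which seals the nick, had 50.4, 44.0 and 43.1 CPM in the libraries labelled sgSEPHS2, against 31.3, 32.2 and 31.6 CPM in the sgCTRL libraries, a log2 fold change of 0.53.

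RNASEH2A, the catalytic subunit of the enzyme that cuts RNA out of DNA, was counted at a far lower level than any other member. It had 29, 52 and 48 reads in the libraries labelled sgSEPHS2, against 21, 23 and 30 in the sgCTRL libraries. Its log2 fold change of 0.85, the largest of the set, carried an SE of 0.31 (edgeR adjusted p = 0.0289) and was lost with DESeq2 (adjusted p = 0.0650). It was also lost without sgCTRL replicate 1 (edgeR adjusted p = 0.0893), sgCTRL replicate 2 (0.0693), sgSEPHS2 replicate 2 (0.101) or sgSEPHS2 replicate 3 (0.0803). In GENCODE 29, exons of THSD8 on the same strand cover 30.8% of its exon bases. The gene's partners in the same enzyme, RNASEH2B and RNASEH2C, were counted at 25.0 ± 0.279 and 37.0 ± 1.93 CPM in the libraries labelled sgSEPHS2 and at 31.1 ± 1.40 and 32.9 ± 1.41 CPM in the sgCTRL libraries (SD, n = 3 each). The level of RNASEH2A is therefore uncertain, and the part of the overlap in it was not tested.

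The fork protection genes rose together. Claspin (CLSPN), which carries the checkpoint signal from a stalled fork to CHEK1, had 66.4, 55.1 and 54.1 CPM in the libraries labelled sgSEPHS2, against 34.1, 37.8 and 33.4 CPM in the sgCTRL libraries (log2 fold change 0.74, SE 0.07, edgeR adjusted p = 1.21e-08). Its partners TIMELESS and TIPIN, which travel with the fork as a pair, had log2 fold changes of 0.55 and 0.46. TIPIN had 27.3, 28.4 and 26.7 CPM in the libraries labelled sgSEPHS2, against 18.9, 21.3 and 19.6 CPM in the sgCTRL libraries, without overlap. A pseudogene on the same strand covers 21% of its exon bases, so its level is uncertain. The subunits of chromatin assembly factor 1, which places histones on new DNA, rose by like amounts. CHAF1B had 25.2, 23.5 and 20.7 CPM in the libraries labelled sgSEPHS2, against 16.2, 16.1 and 15.2 CPM in the sgCTRL libraries, and CHAF1A had 68.9, 58.5 and 57.5 CPM in the libraries labelled sgSEPHS2, against 43.6, 42.9 and 42.6 CPM in the sgCTRL libraries. The groups were apart for both, with log2 fold changes of 0.55 for CHAF1B and 0.52 for CHAF1A. The ratio of CHAF1A to CHAF1B reads was 2.67 ± 0.160 in the libraries labelled sgSEPHS2 and 2.72 ± 0.0665 in the sgCTRL libraries, with overlapping ranges.

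Across the 50 members, the log2 fold change tended to be somewhat smaller at higher levels. Spearman's rho between mean CPM and log2 fold change was -0.22, and Pearson's r with mean log2 CPM was -0.31. The genes share the same 6 libraries, so both are given as a description.

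A wider list of 63 replication genes outside the set moved less uniformly. Of 62 tested, 40 rose and 5 fell, against 22.2% and 23.4% of all genes tested. Over genes averaging 10 CPM or more these shares were 30.3% and 24.9%. The median of the 62 was 0.22 on the log2 scale. The sub-lists are short, and shares such as 1 of 3 lie near those of all genes. Among origin firing factors 9 of 12 rose, and DONSON, which acts in helicase assembly, had the smallest adjusted p (log2 fold change 0.45). Among replication-coupled chromatin factors 10 of 11 rose. The histone chaperones of the ASF1 pair went opposite ways. ASF1B averaged 78.8 ± 6.77 CPM in the libraries labelled sgSEPHS2 and 51.0 ± 2.00 CPM in the sgCTRL libraries (edgeR adjusted p = 1.84e-09). ASF1A averaged 67.4 ± 0.576 CPM in the libraries labelled sgSEPHS2 and 84.4 ± 1.69 CPM in the sgCTRL libraries (edgeR adjusted p = 8.78e-07).

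Genes of ubiquitin control of licensing also split, 3 of 6 rising and 2 falling. DTL, the adaptor that directs the CUL4 ligase to CDT1 on PCNA, rose by a log2 fold change of 0.61. The alternative scaffolds of that ligase fell. CUL4B averaged 202 ± 5.74 CPM in the libraries labelled sgSEPHS2 and 380.2 ± 11.9 CPM in the sgCTRL libraries (log2 fold change -0.91, SE 0.04, edgeR adjusted p = 2.87e-15). CUL4A, on chromosome 13, had a log2 fold change of -0.27. Of the RNase H, exonuclease and helicase genes 3 of 5 rose, led by EXO1 at 0.56, and RNASEH2B, also on chromosome 13, fell by 0.31 on the log2 scale. That call was lost with the length and GC trend removed (log2 fold change -0.08, edgeR adjusted p = 0.222), where the median of all genes was 0.08. Of 3 topoisomerases 1 rose and 1 fell. TOP1, the topoisomerase ahead of the fork, fell by 0.42, while TOP2A, which decatenates the daughter strands, rose by 0.34. DTL and TOP2A, and RNASEH2C above, were chosen after their values were seen.

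Of the small polymerase subunits and partners 2 of 4 rose, with POLE4 at a log2 fold change of 0.62. Among the alternative clamp loaders 3 of 5 rose, led by CHTF18 at 0.50. CHTF8, at 15 to 42 reads in a library, did not pass. Of the checkpoint and fork remodelling genes 6 of 9 rose, with the kinase CHEK1 at 0.38. Of these calls, those of ATR (edgeR adjusted p = 0.0469) and RAD9A (0.0498) were lost with DESeq2 (adjusted p = 0.0992 and 0.126). Both were also lost with limma-voom (adjusted p = 0.0557 and 0.059). Of the translesion synthesis genes 3 of 7 rose, with REV3L at 0.25, or 0.41 with the length and GC trend removed. POLDIP3, with at most 9 reads in a library, was left out by the filter.

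**Figure D5:**
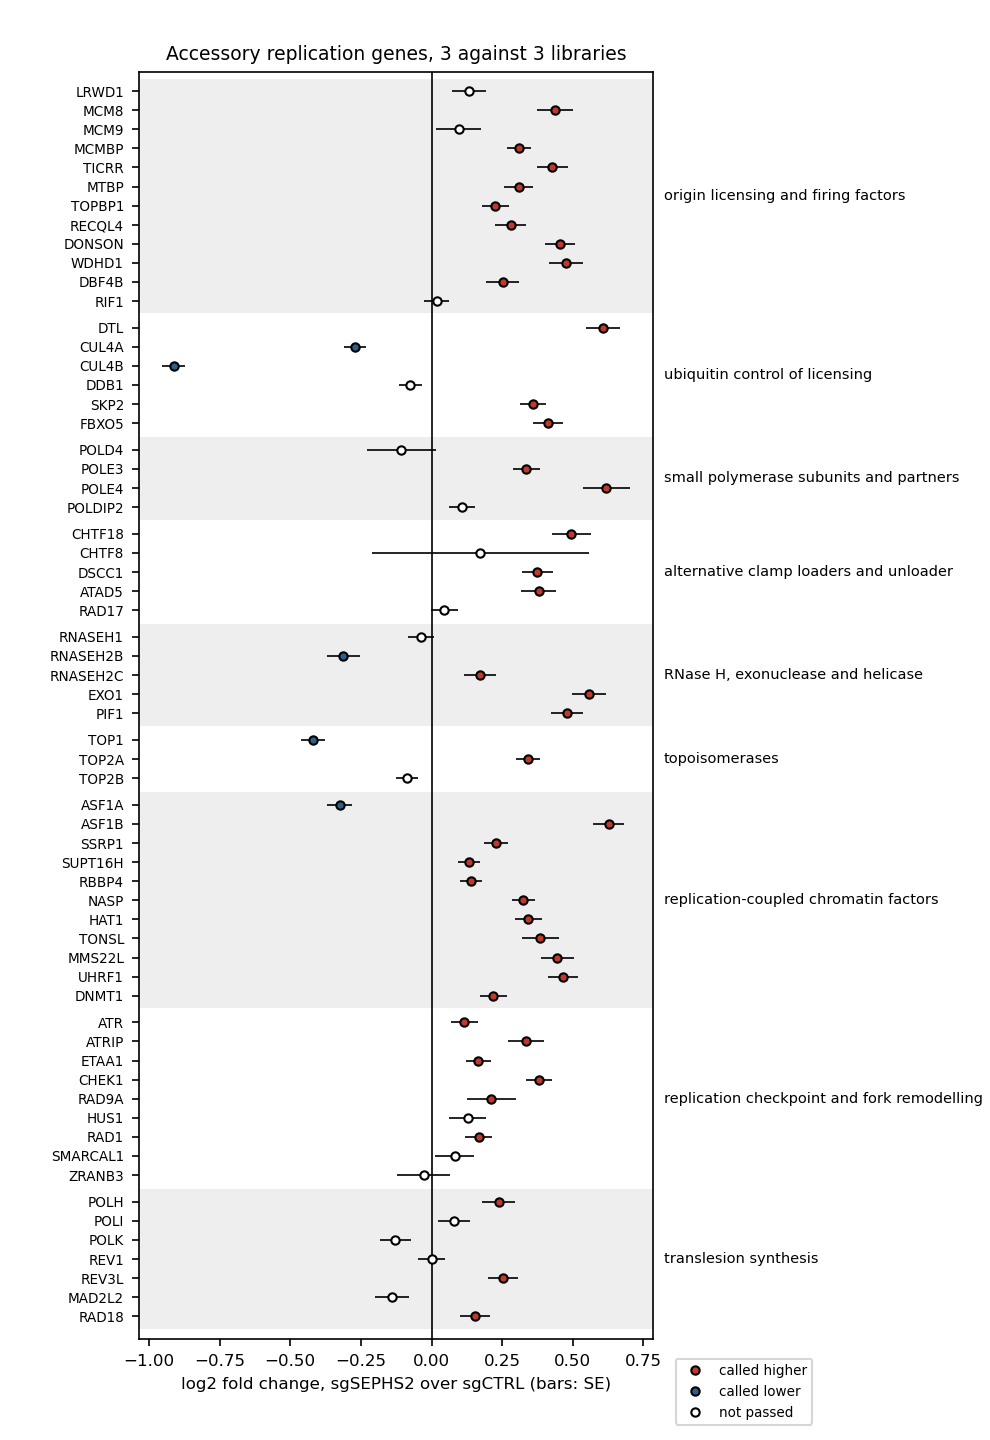
Log2 fold change, sgSEPHS2 over sgCTRL (x axis, bars show the SE), for 62 tested replication genes outside the set (y axis), grouped by role. Red points were called higher (40), blue points lower (5), and open points did not pass. CUL4B, TOP1, ASF1A, RNASEH2B and CUL4A are the blue points, of which RNASEH2B was not called with the length and GC trend removed.

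Of 12 genes of the cell cycle, 8 rose and 1 fell, against 22.2% and 23.4% of all genes tested. Among genes averaging 10 CPM or more the shares were 30.3% and 24.9%. E2F1 averaged 34.4 ± 1.30 CPM in the libraries labelled sgSEPHS2 and 18.9 ± 1.38 CPM in the sgCTRL libraries (log2 fold change 0.86, SE 0.06, edgeR adjusted p = 3.61e-11). E2F2, CCNE2, CCNA2 and CCNB1 rose by log2 fold changes of 0.64, 0.81, 0.61 and 0.59. E2F3 and the proliferation marker MKI67 rose by only 0.14 and 0.15, and the groups overlapped for MKI67. Without sgSEPHS2 replicate 1 neither passed, at 0.06 for MKI67 (edgeR adjusted p = 0.217) and 0.10 for E2F3 (0.0999). Both also missed without sgCTRL replicate 2 (edgeR adjusted p = 0.109 for MKI67 and 0.0823 for E2F3) or sgCTRL replicate 3 (0.0782 and 0.0709). MKI67 missed with DESeq2 (adjusted p = 0.246) and stood at 0.37 with the length and GC trend removed. CCND1, CCNE1 and CDKN1B, at -0.06, -0.03 and -0.08, did not pass (edgeR adjusted p = 0.256, 0.821 and 0.138). The CDK inhibitor CDKN1A rose as well, by 0.63, and CDKN2A, at 1.87 CPM in the libraries labelled sgSEPHS2 and 2.68 CPM in the sgCTRL libraries, fell by 0.51 on the log2 scale. The call of CDKN2A was lost with DESeq2 (adjusted p = 0.0698), without sgCTRL replicate 2 (edgeR adjusted p = 0.0978), without sgSEPHS2 replicate 1 (0.112) and with the trend removed (0.0859). CDKN1B passed without sgSEPHS2 replicate 2 (edgeR adjusted p = 0.0449).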

How the data were processed

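RNA was sequenced from 6 A-375 libraries, 3 labelled sgSEPHS2 and 3 labelled sgCTRL, grouped and numbered by their titles. The authors deposited raw read counts per gene symbol. Per the submitters' processing notes, HISAT2 2.2.1, SAMtools 1.21, FastQC 0.12.1 and featureCounts 2.0.6 were used with GRCh38. The sources used here do not give the annotation, strand setting, multi-mapping rule or filters.

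Genes were tested with edgeR 4.0.16 in R 4.3.3 (TMM factors, default filter by group, robust quasi-likelihood fit, two-sided, Benjamini-Hochberg over all 16910 genes tested), sgSEPHS2 over sgCTRL. CPM used TMM-scaled library sizes. The SE is the log2 fold change over the root of its F statistic, and 95% intervals use the t quantile at the fit's total degrees of freedom. The depth of 34606145 to 43405579 reads limits precision mainly for RNASEH2A among the members and for CHTF8 (SE 0.38) in the wider list. On simulated counts for this comparison (200 of 16910 genes changed), recovery was 38% for a fold of 1.2, 84% for 1.5, 80% for 2 and 96% for 4, and 19 unchanged genes were called. The changed genes were drawn over all levels and were far fewer than the 45.6% called in the data. These rates therefore do not give the recovery of the members. Exon lengths, GC content and overlaps came from GENCODE 29, and positions and promoters from RefSeq GRCh38.p14. The replicates of a group differed by more than counting noise, so none was merged.

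The members and lists were chosen with earlier results of these data known. The text names every member by role. Of the wider list it names, for each sub-list, the called gene of smallest adjusted p and genes called against the sub-list's majority. Outside that rule it names DTL, TOP2A, RNASEH2C, ATR, RAD9A, DDB1 and CHTF8, chosen after their values were seen. It also names POLDIP3, which the filter left out. Alternatives were RLE and upper-quartile factors, other filters, DESeq2 1.42.0, limma-voom 3.58.1, a replicate block, leaving out each library, an adjusted p under 0.01, a test against a 1.2-fold change and removal of a trend in length and GC content. Their use on single accessory and cell cycle genes and on the role medians was chosen after seeing the data.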

Additional observations from a re-analysis of the deposited data

How the results depend on the processing

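The count of 47 members called higher was 43 to 47 under every alternative but the test against a 1.2-fold change, which called 33, and 44 to 46 with 1 library left out. In each setting that tested them 48 members were positive, and POLD2, near 0, was negative in some. The count of members called lower was 0 by edgeR (0 with DESeq2 and with limma-voom). RFC3 was called, giving a count of 1, with at least 1 CPM in 3 libraries required (edgeR adjusted p = 0.0461), without sgSEPHS2 replicate 1 (0.0371) and with the length and GC trend removed (0.00227), so the count was 0 to 1 with 1 library left out. With that trend removed ORC4 was called higher (edgeR adjusted p = 4.36e-04) and ORC5 was not (0.0963). ORC5 also missed with DESeq2 (adjusted p = 0.0689). The trend moved the median of all genes to 0.08 and that of the members to 0.52, and the share of called genes that were higher to 66.6% from 48.6%. Accessory genes called higher numbered 16 and lower 2 in the test against a 1.2-fold change, and lower 8 with upper-quartile factors and 8 with at least 1 CPM in 3 libraries. With 1 library left out they were 37 to 41 higher and 5 to 6 lower. All genes called numbered 7714, 2977 in the test against a 1.2-fold change, and 6361 to 7444 with 1 library left out. With the replicate number as a block, 47 members were called higher and 7877 genes in all. Same-numbered libraries deviated together with correlations of 0.0915, 0.00749 and 0.117, so the numbers were not taken to pair the samples, and not every library correlated best with its own number. Of 799 member values under alternatives, 33 lost and 5 gained a call, and none was reversed. The same alternatives, added after seeing the data, were run for the accessory and cell cycle genes, but not for SEPHS2. Of 1183 such values 74 lost and 23 gained a call, and 1 was reversed, that of DDB1, which stood at 0.18 with the length and GC trend removed (edgeR adjusted p = 2.78e-04) and at -0.08 before it. Among the members, depth limits RNASEH2A most.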
